A study of Homo sapiens with 4 samples.

Results

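The miR-23, miR-24 and miR-27 clusters make 5 main mature microRNAs (miRNAs), hsa-miR-23a-3p, hsa-miR-23b-3p, hsa-miR-24-3p, hsa-miR-27a-3p and hsa-miR-27b-3p. They were chosen by name, by a rule that uses no measured value, though with earlier results of these data known, and are 5 of the 843 distinct mature miRNAs listed across 4 miR-seq libraries. The libraries came from HGC27 and AGS, established human gastric cancer cell lines, and every group stably overexpressed, from a lentivirus, the untranslated region at the 3′ end (3′-UTR) of the mRNA of FN1, which encodes fibronectin, so no library came from cells without it. Before sequencing, an RNA pull-down was done in which biotinylated RNA made in vitro was held on streptavidin beads, mixed with cell lysate and washed, and the RNA that stayed on the beads was purified. Each of these lines, written here as HGC27 and AGS alone, was taken through a pull-down with the positive RNA probe and another with the negative RNA probe for this UTR, which gave 4 groups of 1 library each. The paper's methods put antisense RNA on the beads and the sample labels name a transcript or its antisense, but neither ties the names positive and negative to a strand, so the ratios below say nothing of which strand a miRNA was held by. No library of the lysate before pull-down was analysed here, so the amount of a miRNA in the cells and its recovery on the beads cannot be told apart. The values cover miRNAs alone, and neither the identity of the lines nor the level of the overexpressed UTR was checked.

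The 5 miRNAs come from 2 paralogous clusters, each transcribed as 1 primary transcript that holds 3 hairpins. Drosha and Dicer cut each hairpin to a short duplex, and 1 or the other strand of it (the 5p or the 3p arm) is loaded into an Argonaute protein, where bases 2 to 8 (the seed) pair with target mRNAs. Processing and stability after transcription can let members of 1 transcript reach different levels. miR-24 is known to repress cell-cycle genes such as E2F2 and MYC, and miR-27 to repress PPARG, a regulator of fat-cell differentiation, and FBXW7, a ubiquitin ligase subunit. miR-27a has been described as promoting growth of gastric cancer cells.

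The mature sequences are shown because the paralogous copies differ so little, which bears on every comparison between them. They are RefSeq entries of GRCh38.p14 and were identical to those the authors listed, and capitals mark the seed.
hsa-miR-23a-3p: aUCACAUUgccagggauuucc
hsa-miR-23b-3p: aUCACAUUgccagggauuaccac
hsa-miR-24-3p: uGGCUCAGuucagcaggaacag
hsa-miR-27a-3p: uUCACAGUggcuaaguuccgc
hsa-miR-27b-3p: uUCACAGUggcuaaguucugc

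The 5 sequences held 3 seeds. UCACAUU was shared by both miR-23 copies, UCACAGU by both miR-27 copies, and GGCUCAG belonged to miR-24-3p. None of the other known miRNAs in the table had any of these 3 seeds. Counted from 1 at the 5′ end and with the a copy first, the miR-23 copies differed by U19A and by 2 extra bases at the 3′ end of miR-23b-3p, and the miR-27 copies by C19U. A read that ends before base 19 cannot be assigned to a copy. How reads that match both copies were assigned is not given in the sources used here, so counts of the a and b copies of a pair are uncertain against each other. Their sums do not depend on that split, though reads discarded as ambiguous would be missing from both copies.

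On chromosome 19 (GRCh38, minus strand) the 3 hairpins lay within 373 bases, from 13836287 to 13836659, inside an exon of AC020916.1, a long noncoding RNA named MIR23AHG in RefSeq. Mature miR-23a-3p was at chr19:13836595-13836615, miR-27a-3p at chr19:13836447-13836467 and 1 copy of miR-24-3p at chr19:13836289-13836310. On chromosome 9 (plus strand) the hairpins spanned 881 bases, from 95085208 to 95086088, within C9orf3, now named AOPEP. The hairpins of miR-23b and miR-27b lay in an intron, and mir-24-1 lay in an exon of a transcript annotated for nonsense-mediated decay. Mature miR-23b-3p was at chr9:95085265-95085287, miR-27b-3p at chr9:95085505-95085525 and the other copy of miR-24-3p at chr9:95086064-95086085. Both loci make an identical miR-24-3p, so its reads cannot be assigned to a cluster.

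The libraries held between 1296853 and 2955078 counts over 342 to 609 listed miRNAs, with a lowest listed count of 2. The AGS libraries were dominated by miR-372-3p, which took 80.8% of the counts with the negative and 37.5% with the positive probe, so every AGS level is a part of a whole in which that share moved. In HGC27 the largest entry was miR-148a-3p, with 50.6% and 35.0% of the counts. The values below are raw tag counts, or the deposited score, which is counts per 1000000 rounded to whole numbers. Intervals are exact 95% intervals for counting error only, since the reads are PCR copies without molecular identifiers and the groups have no replicates.

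All 5 members were counted in every library, with counts from 6 to 42925, and their order was led by miR-24-3p and miR-27b-3p throughout. miR-24-3p had 16615 counts with the negative and 42925 with the positive probe in HGC27, and 3499 and 27486 in AGS. miR-27b-3p had 7443 and 9801 counts in HGC27, and 1252 and 1710 in AGS. In both lines the positive probe library held more counts of each of these miRNAs, and it was the smaller library of its line in total. In AGS, however, miR-372-3p took 80.8% of the negative and 37.5% of the positive probe library. Scaled to totals without miR-372-3p, the AGS log2 ratio of the positive over the negative probe was 2.22 for miR-24-3p but -0.30 for miR-27b-3p.

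The miR-23 copies went the other way. miR-23b-3p had 499 counts with the negative and 252 with the positive probe in HGC27, and 52 and 6 in AGS. miR-23a-3p had 194 and 30 counts in HGC27, and 42 and 7 in AGS. For both copies, in both lines, the negative probe library held the higher count.

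The remaining member, miR-27a-3p, was sparse, with 47 and 95 counts in HGC27 and 9 and 6 in AGS. In the AGS positive probe library, miR-23a-3p, miR-23b-3p and miR-27a-3p all stood at 6 or 7 counts, and their order there is within counting error.

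**Figure D1:**
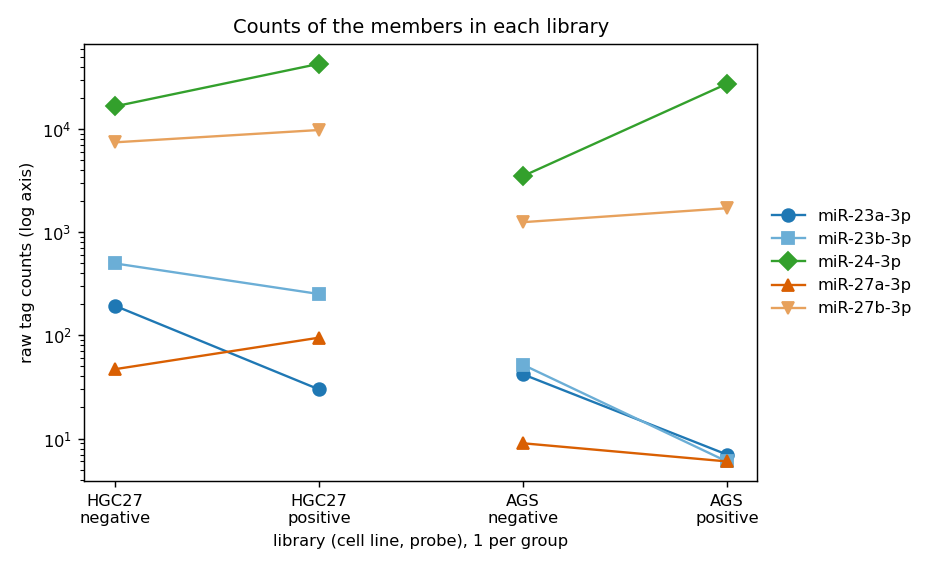
Raw tag counts (log axis) of the 5 members in each library, with 1 library per line and probe and lines that join the 2 probes of a line. miR-24-3p and miR-27b-3p lie above the other members in every library, and both miR-23 copies slope down from the negative to the positive probe in both lines.

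Together the members took 1.71% of all counts (interval 1.69 to 1.73) with the negative and 4.09% (4.06 to 4.13) with the positive probe in HGC27. In AGS they took 0.164% (0.160 to 0.169) and 1.91% (1.89 to 1.93). Most of this was miR-24-3p, whose share of the 5 was 67.0% and 80.8% in HGC27 and 72.1% and 94.1% in AGS, negative probe first. miR-27b-3p held most of the rest, with 30.0% and 18.5% in HGC27 and 25.8% and 5.85% in AGS. Among all entries ordered by count, miR-24-3p stood at rank 14 and rank 6 in HGC27 and at rank 20 and rank 11 in AGS. miR-23a-3p stood at rank 110 and rank 200 in HGC27 and at rank 114 and rank 207 in AGS. Adaptor ligation captures different miRNAs unequally, so these orders describe reads and not molecules.

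The probes were compared within each line by the ratio of the deposited score + 1 with the positive probe over that with the negative probe, called higher at 2 or more and lower at 0.5 or less. The score corrects for library size but not for composition, and the intervals given are those of the fold computed from the counts and the divisors behind the score. In HGC27, 2 of the 5 members were higher, where 37.5% of all miRNAs with a count were higher, and 1 was lower, where 34.0% were lower. A share of 2 in 5 is near that background, so the count itself says little about the clusters, and the order of the members carries the comparison.

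In HGC27 the highest ratio was that of miR-24-3p, with scores of 5716 and 15534 and a ratio of 2.72 (2.67 to 2.77). miR-27a-3p followed at 2.06, from scores of 16 and 34, with a fold from the counts of 2.13 (1.48 to 3.08), so its interval spans the threshold. miR-27b-3p, with scores of 2561 and 3547, was past neither threshold at 1.38 (1.34 to 1.43). Both miR-27 copies thus stood above 1 and below miR-24-3p in point value. miR-23b-3p had a ratio of 0.532 (0.455 to 0.619) from scores of 172 and 91, just short of the threshold. miR-23a-3p had a ratio of 0.176 from scores of 67 and 11, and its fold from the counts was 0.163 (0.107 to 0.240). The intervals of both miR-23 copies lay wholly below 1, and the members spanned 15.4-fold from the lowest to the highest ratio.

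In AGS, 2 members were higher, where 39.4% of all miRNAs with a count were higher, and 2 were lower, where 22.7% were lower. miR-24-3p again had the highest ratio, 13.2 (12.7 to 13.7), from scores of 487 and 6433. miR-27b-3p had a ratio of 2.29 (2.13 to 2.47) from scores of 174 and 400. This call for miR-27b-3p rests on the scaling: its log2 ratio was 1.20 by the deposited score, 0.45 on raw counts, and -0.30 when libraries were scaled to totals without miR-372-3p. The log2 ratio of miR-24-3p was between 2.22 and 3.37 under the other scalings of the libraries and 3.72 by the score.

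Both miR-23 copies were past the lower threshold in AGS, where in HGC27 miR-23a-3p alone was. miR-23b-3p had scores of 7 and 1, a ratio of 0.25 and a fold from the counts of 0.194 (0.0680 to 0.451). miR-23a-3p had scores of 6 and 2, a ratio of 0.429 and a fold from the counts of 0.280 (0.106 to 0.629). Their intervals overlap widely, so AGS does not order the copies. Both are sensitive to scaling and rounding in size, not in direction: the log2 ratio was -1.22 for miR-23a-3p and -2.00 for miR-23b-3p by the score, -2.43 and -2.92 on raw counts, and -3.17 and -3.67 with totals without miR-372-3p. miR-27a-3p, with a score of 1 in both libraries, had a fold of 1.12 (0.328 to 3.52), and no difference was detectable at this depth. With totals without miR-372-3p its log2 ratio was -1.21, past the lower threshold, from the same 9 and 6 counts. The members spanned 52.7-fold in AGS. As a median over the members the log2 ratio was 0.47 for HGC27 and 0.00 for AGS. Over all miRNAs that reached 10 counts in either library of a line, the medians were -0.12 (366 miRNAs) and 0.42 (230 miRNAs).

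**Figure D2:**
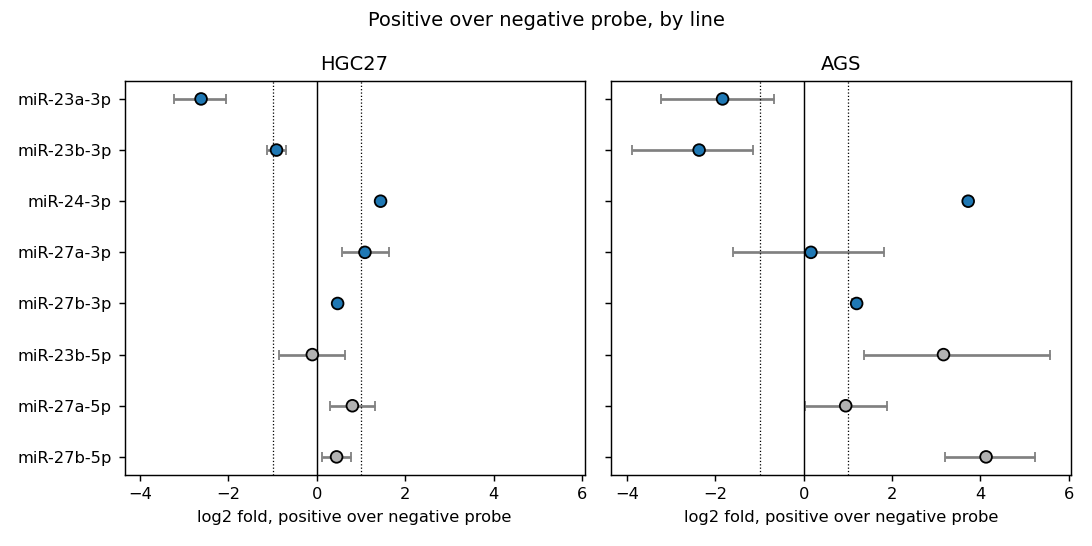
log2 fold of the positive over the negative probe, from the counts and the library divisors, for the 5 members (blue) and the 5p arms (grey) in HGC27 and AGS; bars are exact 95% counting intervals, absent where narrower than the point, and dotted lines mark a 2-fold difference. In both lines miR-23a-3p and miR-23b-3p lie left of 0 and miR-24-3p lies right of 0, at 1.44 in HGC27 and 3.72 in AGS.

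To bring the lines together, the counts of all 4 libraries were fitted in edgeR by its quasi-likelihood method with cell line as a covariate, so that the lines stood in for replicates. None of the 5 members passed an adjusted p of 0.05, where 4.06% of the 271 miRNAs tested were called higher and 2.95% lower. Before adjustment 1 member, miR-23a-3p, and 55 of all miRNAs tested were under 0.05. Its log2 fold change was -2.61 ± 1.12 (SE) with an adjusted edgeR p of 0.121, and its level was higher with the negative probe in both lines. miR-23b-3p had a log2 fold change of -1.90 ± 1.17 with an adjusted edgeR p of 0.345, and miR-24-3p one of 2.17 ± 1.56 with an adjusted edgeR p of 0.419. The miR-27 copies had log2 fold changes of 0.39 ± 1.09 and 0.43 ± 1.22, both with an adjusted edgeR p of 0.885. The fit has 1 residual degree of freedom, and its prior degrees of freedom were infinite. The spread behind each SE was therefore taken from a trend over the 271 miRNAs tested, with no weight on the member's own residual. Each SE was derived from the log2 fold change and the F statistic. The line covariate takes up a difference in level between the lines. These standard errors still mix the spread of libraries with any difference between the lines in the effect of the probe. DESeq2 and limma-voom also called 0 members. Over all alternatives the adjusted p of miR-24-3p ran from 0.0910 (DESeq2) to 0.834 (edgeR without a filter).

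Members of 1 primary transcript were next set against each other inside each library. Such a ratio of counts does not depend on how libraries are scaled, and neither the miR-372-3p share nor the score enters it. On chromosome 19, miR-27a-3p over miR-23a-3p was 0.242 (0.172 to 0.335) with the negative and 3.17 (2.08 to 4.95) with the positive probe in HGC27, a change of 13.1-fold (7.54 to 22.8). By these counts the more frequent of the pair was miR-23a-3p with the negative and miR-27a-3p with the positive probe in HGC27. Ratios of single copies, here and on chromosome 9, depend on how reads were split between the a and b copies, which is not given. In AGS the ratio was 0.214 (0.0917 to 0.447) and 0.857 (0.238 to 2.98), a change of 4.00-fold (0.863 to 17.7). That interval includes 1, and the positive probe value rests on 6 and 7 counts.

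On chromosome 9, miR-27b-3p over miR-23b-3p was 14.9 (13.6 to 16.4) and 38.9 (34.3 to 44.2) in HGC27, a change of 2.61-fold (2.23 to 3.06). In AGS it was 24.1 (18.2 to 32.4) and 285 (131 to 778), a change of 11.8-fold (5.06 to 33.8). The miR-27 copy was therefore higher relative to its miR-23 neighbour with the positive probe in both clusters and both lines, with intervals that leave out 1 in 3 of the 4 comparisons.

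miR-24-3p was set against the sum of each pair, since it comes from both clusters. Over the miR-23 pair it was 24.0 (22.2 to 25.9) and 152 (135 to 172) in HGC27, and 37.2 (30.3 to 46.2) and 2114 (1236 to 3971) in AGS. These are changes of 6.35-fold (5.51 to 7.33) and 56.8-fold (31.6 to 111) with the positive probe. Over the miR-27 pair it was 2.22 (2.16 to 2.28) and 4.34 (4.24 to 4.43) in HGC27, and 2.77 (2.60 to 2.96) and 16.0 (15.3 to 16.8) in AGS, changes of 1.96-fold (1.89 to 2.03) and 5.77-fold (5.32 to 6.26). In both lines, the change against the miR-23 pair lay above the change against the miR-27 pair with intervals that do not overlap, so relative to the negative probe the families stood in the order miR-24, miR-27, miR-23. Sums over a pair do not depend on how reads were split between copies. With the negative probe the 2 lines were closer, at 24.0 and 37.2 over the miR-23 pair and 2.22 and 2.77 over the miR-27 pair, than with the positive probe.

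**Figure D3:**
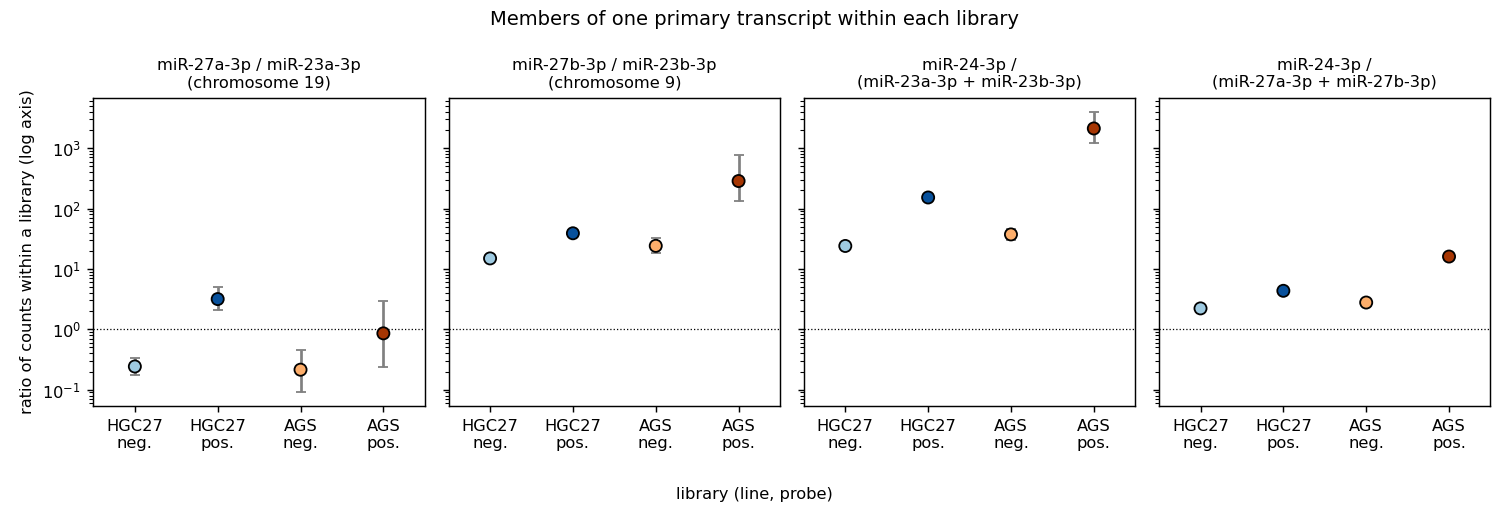
Ratios of raw counts within each library (log axis) for members of 1 primary transcript and for miR-24-3p over each pair; bars are exact 95% counting intervals and the dotted line marks equal counts. In every panel the positive probe library of a line lies above its negative probe library, with overlapping intervals only for miR-27a-3p over miR-23a-3p in AGS.

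The clusters were compared through their paralogous copies, as the part of a pair that carried the chromosome 19 sequence. For miR-27 that part was below 1% in every library, at 0.628% (0.461 to 0.834) and 0.960% (0.777 to 1.17) in HGC27 and 0.714% (0.327 to 1.35) and 0.350% (0.128 to 0.759) in AGS. By the counts as assigned to the copies, miR-27b-3p therefore outnumbered miR-27a-3p by 103-fold to 285-fold. For miR-23 the chromosome 19 part was far larger, at 28.0% (24.7 to 31.5) and 10.6% (7.29 to 14.8) in HGC27 and 44.7% (34.4 to 55.3) and 53.8% (25.1 to 80.8) in AGS. The 2 pairs thus gave different accounts of the same clusters within each library. In HGC27 miR-23b-3p over miR-23a-3p was 3.27-fold (2.14 to 5.11) higher with the positive probe, while miR-27b-3p over miR-27a-3p was 0.651-fold (0.449 to 0.935) that with the negative probe. In AGS the same changes were 0.692-fold (0.178 to 2.62) and 2.05-fold (0.649 to 7.01), with intervals that include 1. The 5p arms of the miR-27 hairpins showed a smaller gap between the copies than the 3p arms in every library. In HGC27, miR-27a-5p had 53 and 88 counts beside 142 and 184 of miR-27b-5p. In AGS it had 20 and 23 beside 10 and 104, so miR-27a-5p had the higher count with the negative probe there. The part played by the assignment of reads between copies was not tested.

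The other arm of each hairpin, the 5p arm, is cut from the same precursor and differs between the paralogous copies before base 19. For miR-27 the difference lies within the seed. The limit at base 19 therefore does not apply to reads of these arms. Of 8 such miRNAs looked for (the 6 5p arms, and miR-3074-5p and miR-3074-3p, whose hairpin overlaps mir-24-1), 5 were listed. The 3 with enough counts for a comparison are shown with the seed in capitals.
hsa-miR-23b-5p: uGGGUUCCuggcaugcugauuu
hsa-miR-27a-5p: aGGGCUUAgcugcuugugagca
hsa-miR-27b-5p: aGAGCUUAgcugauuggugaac

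miR-27b-5p had 142 counts with the negative and 184 with the positive probe in HGC27, and 10 and 104 in AGS. miR-27a-5p had 53 and 88 counts in HGC27, and 20 and 23 in AGS. miR-23b-5p had 35 and 31 counts in HGC27, and 3 and 16 in AGS. The 5p arms of mir-24 were nearly absent, with 5, 3, 0 and 0 counts for miR-24-1-5p and 4, 0, 2 and 0 for miR-24-2-5p over the HGC27 negative, HGC27 positive, AGS negative and AGS positive libraries.

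In AGS the ratio of the probes was 12.5 for miR-27b-5p, with a fold from the counts of 17.5 (9.13 to 37.5), and 5.00 for miR-23b-5p, with a fold of 8.96 (2.57 to 48.0). The miR-23b-5p value rests on 3 counts with the negative probe. The 3p arm of the same hairpin, miR-23b-3p, had a fold of 0.194 in that line, so the 2 arms of mir-23b were on opposite sides of 1. In HGC27 the ratio was 1.36 (1.09 to 1.71) for miR-27b-5p, 1.74 (1.23 to 2.50) for miR-27a-5p and 0.923 (0.556 to 1.56) for miR-23b-5p. For miR-27b-5p and miR-23b-5p the intervals of the lines do not overlap, and for miR-27a-5p, with a fold of 1.93 (1.01 to 3.71) in AGS, they do. All these folds use the divisors behind the score. Other scalings were run for the members alone, where the AGS log2 ratio of miR-27b-3p was 1.20 by the score and -0.30 with totals without miR-372-3p. Whether the 5p intervals of the lines lie apart, or above 1 in AGS, under another scaling was not tested.

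Within libraries, the 3p over 5p ratio of miR-27b was 52.4 (44.4 to 62.3) and 53.3 (46.0 to 62.0) in HGC27, a change of 1.02-fold (0.809 to 1.27). In AGS it was 125 (67.9 to 262) and 16.4 (13.5 to 20.2), a change of 0.131-fold (0.0610 to 0.253). For miR-23b the ratio was 14.3 (10.1 to 20.7) and 8.13 (5.58 to 12.2) in HGC27, and 17.3 (5.61 to 86.8) and 0.375 (0.120 to 1.01) in AGS. These are changes of 0.570-fold (0.333 to 0.981) and 0.0216-fold (0.00342 to 0.113). For mir-23b and mir-27b the 5p arm was thus more frequent relative to the 3p arm with the positive probe in AGS, by more than counting error. The other chromosome 9 hairpin, mir-24-1, could not be compared, since its 5p arm had 0 counts in both AGS libraries.

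miR-27a had nearly equal arms in HGC27, with a 3p over 5p ratio of 0.887 (0.586 to 1.34) and 1.08 (0.799 to 1.46). In AGS its 5p arm was the more frequent, at 0.450 (0.180 to 1.03) and 0.261 (0.0869 to 0.659). The change with the positive probe was 1.22-fold (0.726 to 2.04) in HGC27 and 0.580-fold (0.144 to 2.22) in AGS, and both intervals include 1. Within every library the interval of miR-27a lay below that of miR-27b. By the counts as assigned to the copies, the arm ratios of the paralogous copies therefore differed. Every 3p over 5p ratio given here uses a 3p count that depends on how reads were split between the a and b copies, which is not given. How far that split accounts for the difference between the copies was not tested. The interval of miR-27a lay wholly below 1 in the AGS positive probe library alone and included 1 in the other 3 libraries.

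The 5p arms give a second reading of the chromosome 9 transcript. miR-27b-5p over miR-23b-5p was 4.06 and 5.94 in HGC27, a change of 1.46-fold (0.831 to 2.58), and 3.33 and 6.50 in AGS, a change of 1.95-fold (0.310 to 8.69). Both point values lie on the same side of 1 as those of the 3p arms, but both intervals include 1.

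**Figure D4:**
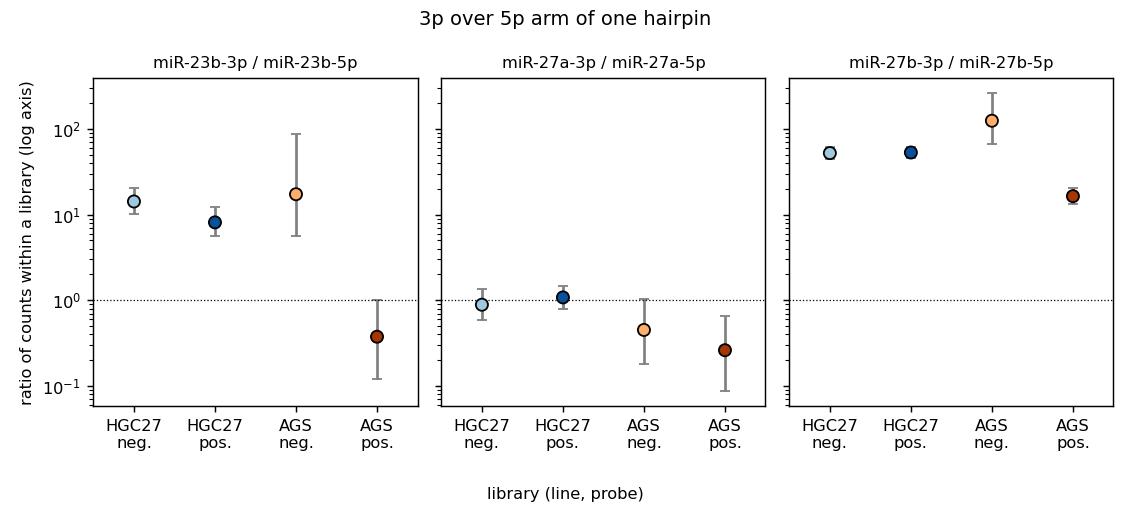
Ratio of raw counts of the 3p arm over the 5p arm of 1 hairpin within each library (log axis); bars are exact 95% counting intervals and the dotted line marks equal arms. The AGS positive probe library has the lowest ratio in all 3 panels, at 0.375 for miR-23b, 0.261 for miR-27a and 16.4 for miR-27b.

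The lines were compared by the same ratio of scores, HGC27 over AGS. With each probe all 5 members were higher in HGC27, where 86.0% of all miRNAs with a count were higher with the negative and 75.3% with the positive probe. No member was lower, where 6.02% and 12.9% of all miRNAs were. The members' direction is therefore that of most of the table, and the large miR-372-3p share of AGS enters every score of that line. With the negative probe the ratios lay close together, from 8.50 for miR-27a-3p to 21.6 for miR-23b-3p. That low end rests on a rounded AGS score of 1. The fold from the counts was 12.9 (6.25 to 29.9) for miR-27a-3p, beside 11.4 (8.14 to 16.3) for miR-23a-3p. With the positive probe the ratios were spread from 2.41 (2.38 to 2.45) for miR-24-3p to 46.0 for miR-23b-3p, whose fold from the counts was 64.9 (29.4 to 179). The median log2 ratio of the members was 3.55 and 3.15, beside 2.81 and 2.59 over all miRNAs that reached 10 counts in either line. Most of these calls rest on the scaling. With TMM or with DESeq2 size factors, 1 of 5 members was higher in HGC27 with the negative probe and 2 of 5 with the positive probe, and the log2 ratios with the negative probe were 0.40 to 1.51 in place of 3.09 to 4.43. Under the same scalings, the log2 ratio of miR-24-3p with the positive probe was -0.98 and -1.29.

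In the fit over all 4 libraries with probe as a covariate, 0 of 5 members were called between the lines by edgeR, where 22.1% of the miRNAs tested were called higher in HGC27 and 7.75% lower. Before adjustment 0 members and 106 of all miRNAs tested were under 0.05. The nearest was miR-23b-3p, with a log2 fold change of 2.29 ± 1.18 and an adjusted edgeR p of 0.136. miR-24-3p had a log2 fold change of -0.47 ± 1.50 with an adjusted edgeR p of 0.850. The median log2 fold change over all miRNAs tested was 0.63, so a member near that value did not stand apart from the table. DESeq2 and limma-voom called 0 members between the lines.

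The likeness of profiles was described by the Euclidean distance between log2(score + 1) values over the 4 libraries, each profile centred on its own mean, so that levels do not count. Among the members, miR-27a-3p and miR-27b-3p were closest, at 0.94, and they share a seed but not a cluster. Their low end is coarse, since miR-27a-3p had a score of 1 in both AGS libraries. miR-23a-3p and miR-23b-3p were 2.65 apart, and miR-23b-3p and miR-24-3p were farthest apart, at 5.07. The miR-23 profiles are coarse in AGS as well, with scores of 6 and 2 for miR-23a-3p and 7 and 1 for miR-23b-3p, negative probe first.

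Among 110 known miRNAs of other families with at least 10 counts in each library, the profile most like miR-24-3p was that of miR-98-5p, a let-7 family member, at a distance of 0.79, followed by miR-146b-5p at 0.89 and let-7f-5p at 0.92. For miR-23b-3p they were miR-148b-3p at 0.61, miR-148a-3p at 0.78 and miR-744-5p at 1.03. For miR-23a-3p they were miR-455-5p at 0.66, miR-186-5p at 0.96 and miR-26b-5p at 1.22. miR-24-3p and miR-23b-3p thus had different nearest neighbours, and those of miR-23b-3p include the entry that dominates HGC27. For miR-27a-3p they were miR-96-5p at 0.31, miR-1307-3p at 0.37 and miR-148a-5p at 0.52. For miR-27b-3p they were miR-32-5p at 0.43, miR-181a-2-3p at 0.49 and miR-181a-3p at 0.55. The median distance to all candidates was between 2.80 and 3.71. miR-23a-3p, miR-23b-3p and miR-27a-3p themselves had fewer than 10 counts in the AGS positive probe library, so their nearest neighbours are uncertain. With only 4 libraries, such distances are a description of these libraries.

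The FN1 3′-UTR was searched for the letters that pair with each seed. In the transcript ENST00000354785.8 the UTR is 1101 bases long, at chr2:215360454-215361554 of GRCh38 on the minus strand. The complement of the miR-27 seed, ACTGTGA, matched once, at UTR position 431 (chr2:215361118-215361124), and the site is shown with its flanks and the match in capitals.
FN1 3′-UTR site: atcttgttACTGTGAtattttaa

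AATGTGA, the complement of the miR-23 seed, and CTGAGCC, that of the miR-24 seed, had no match in this UTR. Of the 478 different seeds of known miRNAs in the table, 7.53% had such a match. The seed letters themselves, which would pair with the antisense strand, were TCACAGT for miR-27, TCACATT for miR-23 and GGCTCAG for miR-24, and none of them matched, where 6.90% of all known seeds did. These are matches of letters in 1 annotated UTR, and the exact extent of the overexpressed insert and of the probes was not checked. miR-27a-3p and miR-27b-3p share the seed and so the 1 match. The absence of a match says only that these letters are not in this window.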

How the data were processed

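RNA held by the probes in lysates of HGC27 and AGS cells that overexpressed the FN1 3′-UTR was sequenced as small RNA, with 1 library per line and probe, grouped by the sample titles. For each mature miRNA the deposited values are raw counts of tags and a score, which the authors made by scaling counts to 1000000 and rounding. The submitters' processing notes name cutadapt 1.9.3, Novoalign 3.02.12 and hg38, without roles. Rows repeated for several precursors were collapsed and blanks taken as 0. The divisors behind the score, recovered from counts and scores, were 2763288 to 7179197 tags, and the table totals were 35.7% to 50.0% of them, for a reason not given in the sources used here. In each library 7 to 13 scores were off the rounded quotient.

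Ratios used a pseudocount of 1 and a threshold of 2, with exact 95% intervals conditional on the summed counts. Tests across lines used edgeR 4.0.16 (TMM, filterByExpr, Benjamini-Hochberg over all miRNAs tested), with DESeq2 1.42.0 and limma 3.58.1 as alternatives, in R 4.3.3. The edgeR script was tested on simulated data, with a pass condition at a spread well below that of these data. The biological coefficient of variation here was 0.61, so that test does not show what the fit can detect. Nothing says that libraries came from separate cultures, so p-values measure the spread between these 4 libraries, which may be technical. The planned continuous tags per 1000000 were replaced by the rounded score, with the same ratio. The text names the members, other mature miRNAs of the same hairpins, predicted entries that resemble a member (there were 0), and for each member the 3 miRNAs of other families with the nearest profile. Members and lists were chosen with earlier results of these data known. Alternatives were other scalings, pseudocounts, thresholds, filters and tools. RefSeq (GRCh38.p14) gave the sequences and positions of all 5 members.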

Additional observations from a re-analysis of the deposited data

Results flagged for a closer look

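5 results had opposite directions in the lines, with 1 library per group, and the difference between the lines was not tested. Values are log2 differences of the positive and negative probe, and the difference is AGS minus HGC27. The log2 ratio of miR-23b-5p, by the deposited score and with no other scaling run, differed by 2.44, from -0.12 in HGC27 to 2.32 in AGS. The AGS value rests on 3 counts with the negative probe. The 3p over 5p ratio of miR-27b differed by -2.95, from 0.02 in HGC27 to -2.93 in AGS, and the HGC27 counting interval includes no change. The 3p over 5p ratio of miR-27a differed by -1.07, from 0.28 to -0.79, with both counting intervals including no change. miR-23b-3p over miR-23a-3p differed by -2.24, from 1.71 in HGC27 to -0.53 in AGS, and miR-27b-3p over miR-27a-3p by 1.65, from -0.62 to 1.03. The AGS values of these last pairs rest on 6 and 7 counts in the positive probe library for miR-23 and on 9 and 6 counts for miR-27a-3p.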

How the results depend on the processing

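The 24 recomputed shares and ratios within a library, with the score in place of counts, all moved by less than their counting interval. The score divides all counts of a library by 1 number, so they could change little beyond rounding, and this does not test the processing. The split of reads between copies was not varied. The 37 alternatives for fold changes for the probe called 0 members and kept their direction. Of 60 alternatives for ratios between the probes, 41 moved by less than counting error, 18 by more, and 1 reversed: miR-27b-3p in AGS, at a log2 ratio of -0.30 with totals without miR-372-3p. The number of members higher in HGC27 (2) was 1 with a pseudocount of 10 and 0 with a threshold of 4. In AGS the number higher (2) was 1 with raw counts, TMM, DESeq2 size factors, totals without miR-372-3p and a threshold of 4, and the number lower (2) was 0 with a pseudocount of 10, 1 with a threshold of 4 and 3 with totals without miR-372-3p, which added miR-27a-3p. Between the lines, 18 of 60 ratios moved by less than counting error, 40 by more and 2 reversed, both miR-24-3p with the positive probe, at -0.98 with TMM and -1.29 with DESeq2 size factors. The 5 members higher with the negative probe became 1 with TMM, 1 with DESeq2 size factors and 2 without miR-372-3p, and the 5 with the positive probe became 2 with TMM and 2 with DESeq2 size factors, which also called 1 lower. With library totals only, edgeR called 3 members between the lines (miR-23b-3p, miR-27a-3p and miR-27b-3p, adjusted p = 0.00585, 0.0235 and 0.0179, which under the other alternatives reached 0.545, 0.768 and 0.845), and the log2 fold change of miR-24-3p reversed to 2.08; 33 of 37 alternatives for these fold changes kept direction and call.

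Over all miRNAs the AGS split of 181 higher and 104 lower was 184 and 179 on raw counts, 184 and 177 with TMM, 196 and 166 with DESeq2 size factors and 163 and 208 without miR-372-3p, with medians of 0.42, -0.20, -0.18, 0.18 and -0.95 (log2). HGC27 over AGS, the split of 529 and 37 with the negative probe was 243 and 114 with TMM, 279 and 123 with DESeq2 size factors and 372 and 104 without miR-372-3p, and that of 515 and 88 with the positive probe was 344 and 165, 400 and 189, and 455 and 124. With at least 10 counts in each library, miR-24-3p and miR-27b-3p alone of the members could be tested. Adding resembling predicted entries was not run, as there were 0. No paired analysis by replicate number was possible because the labels give none. The line covariate of the edgeR fit pairs the libraries of a line, since it sets the probes against each other within lines, and without it edgeR called 0 members for the probe. Leaving out a library would leave a line without 1 of its probes, so that no residual spread remains. Counting depth limits miR-23a-3p, miR-23b-3p and miR-27a-3p in AGS, which had 6 or 7 counts with the positive probe. The cause of these changes was not tested.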
